A study of Mus musculus with 4 samples.

Results

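The stretch of mouse chromosome 5 from 125950000 to 128100000 (mm9) holds Tmem132b near its left end, Tmem132c near its right end and a long span between the genes. H3K27ac HiChIP interactions of this stretch were described in nuclei of 2 classes of inhibitory neuron, the interneurons that express somatostatin (SST) and those that express vasoactive intestinal peptide (VIP). An interaction was a member when at least 1 of its paired anchors overlapped the stretch by at least 1 bp. This gave 97 of 15011 interactions, namely 55 of 8278 in the SST list and 42 of 6733 in the VIP list. Nuclei came from adult cortex of C57BL/6 mice that carried a Sun1 tag switched on by Sst-cre or Vip-cre, and were captured through that tag (INTACT). The labels give 4 samples, 2 per cell type. The lists analysed belong to replicate 1 of each cell type, and replicate 2 was not analysed here. The number of animals behind a sample is not stated in the labels, and each group is defined by its Cre driver alone.

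HiChIP joins DNA ends that lie close together in crosslinked nuclei and keeps the joined fragments that carry the precipitated mark. H3K27ac is a mark of active promoters and enhancers. A fragment can be kept when either of its ends carries the mark, and acetylation at each anchor was not examined. TMEM132 proteins are single-pass membrane proteins found mainly in the nervous system, and they have been proposed to act in cell adhesion and to connect to the actin cytoskeleton. In the RefSeq gene table (GRCm38.p6, used for names and order only) the family has 5 genes. Tmem132b, Tmem132c and Tmem132d lie on chromosome 5, Tmem132e on chromosome 11 and Tmem132a on chromosome 19. The protein-coding gene before Tmem132b is Aacs, which encodes acetoacetyl-CoA synthetase, and those after Tmem132c are Slc15a4, a peptide and histidine transporter, Glt1d1 and Tmem132d. Of the 18 genes listed between Tmem132b and Tmem132c, 14 are lncRNAs and 1, Gm4868, is protein-coding. The approximate mm9 spans used for the genes were 126.0 to 126.3 Mb for Tmem132b and 127.7 to 128.05 Mb for Tmem132c. An mm9 annotation was not used here, so no anchor is assigned to a promoter, exon or intron.

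The promoters of both genes are shown because the lists differ at the left end of Tmem132b and hold nothing at Tmem132c. Each sequence runs from 250 bases before to 50 bases after the annotated start, on the plus strand, from RefSeq GRCm38.p6, whose positions cannot be compared with the mm9 positions used elsewhere. They lie at chr5:125532168-125532467 for Tmem132b and chr5:127241576-127241875 for Tmem132c. Capitals mark CCTCCT in the first sequence and GATC, the recognition site of the MboI enzyme used to cut the chromatin, in the second.
Tmem132b: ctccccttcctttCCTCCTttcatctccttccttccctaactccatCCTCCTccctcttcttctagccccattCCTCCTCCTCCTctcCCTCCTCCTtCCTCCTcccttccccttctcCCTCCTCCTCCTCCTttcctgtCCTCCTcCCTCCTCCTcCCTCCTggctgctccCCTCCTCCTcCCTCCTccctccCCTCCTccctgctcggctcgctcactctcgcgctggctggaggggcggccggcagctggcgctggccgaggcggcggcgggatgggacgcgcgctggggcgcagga
Tmem132c: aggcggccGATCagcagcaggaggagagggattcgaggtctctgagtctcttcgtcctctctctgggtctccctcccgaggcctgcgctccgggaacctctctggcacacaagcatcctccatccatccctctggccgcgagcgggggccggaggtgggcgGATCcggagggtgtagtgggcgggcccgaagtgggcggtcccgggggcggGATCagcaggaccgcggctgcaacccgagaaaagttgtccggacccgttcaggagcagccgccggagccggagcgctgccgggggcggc
Over its 300 bases the Tmem132b window holds 78% C or T (pyrimidines), against 46.3% in Tmem132c. In the first 200 bases the values are 94.5% and 49%, so the pyrimidine-rich part of Tmem132b lies mainly there. Counting both strands and overlapping copies, CCTCCT occurs 20 times in Tmem132b and 1 time in Tmem132c. At least 1 copy is present in 35.3% of all 32851 promoters of the table, and at least 20 copies in 0.00609%. This motif was chosen after the sequence was seen. GATC does not occur in the Tmem132b window and occurs 3 times in that of Tmem132c, and 48.0% of all promoters hold it. The GC-box letters GGGCGG, on both strands, occur 1 time in Tmem132b and 5 times in Tmem132c, with 35.7% of promoters holding at least 1. TATAAA occurs in neither, against 13.6% of promoters. CpG pairs number 15 and 29, with a median of 7 over all promoters. These matches describe the letters only.

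No read count, score or p-value accompanies an interaction, so every value below is a count of listed interactions or a position. A single list stood for each cell type, so spread between replicates could not be measured and no test was made. Intervals are exact 95% intervals that cover counting error only, and they treat interactions as independent although these share anchors. Read depth behind the lists is unknown. Absence from a list means only that no call was made, and a contact in fewer nuclei cannot be told apart from a weaker one in each nucleus. The defining genes Sst and Vip were not looked up, for lack of an mm9 annotation.

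The numbers of listed interactions per 1000 were close in the lists, and part of the anchors lay at different positions. SST had 55 interactions (Poisson interval 41.4 to 71.6), or 6.64 per 1000 of its list (5.01 to 8.65). VIP had 42 (30.3 to 56.8), or 6.24 per 1000 (4.50 to 8.43), and the intervals overlap over most of their length. The counts depend on how anchors were split, as merging anchors of a list within 5 kb left 38 in SST and 23 in VIP. Interactions with both anchors overlapping those of an interaction in the other list made up 29.1% in SST, against 21.4% of its whole list. In VIP they made up 28.6%, against 25.8%. A difference in layout is thus not shown to be particular to the stretch. The stretch was chosen with these lists in view, so the counts are a description. Of 1220 tiles of the same length along the genome, 2.05% held as many or more SST interactions and 2.95% as many or more VIP interactions. The median tile held 1 in each list, and the highest counts were 183 in SST and 113 in VIP. The tiles with the closest pair of counts per 1000, by Euclidean distance, were chromosome 9 from 40850020 to 43000020 (54 SST and 47 VIP interactions), chromosome 6 from 135450064 to 137600064 (52 and 47) and chromosome 7 from 96750046 to 98900046 (54 and 35). With only 2 lists this likeness rests on 2 values per tile.

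**Figure D1:**
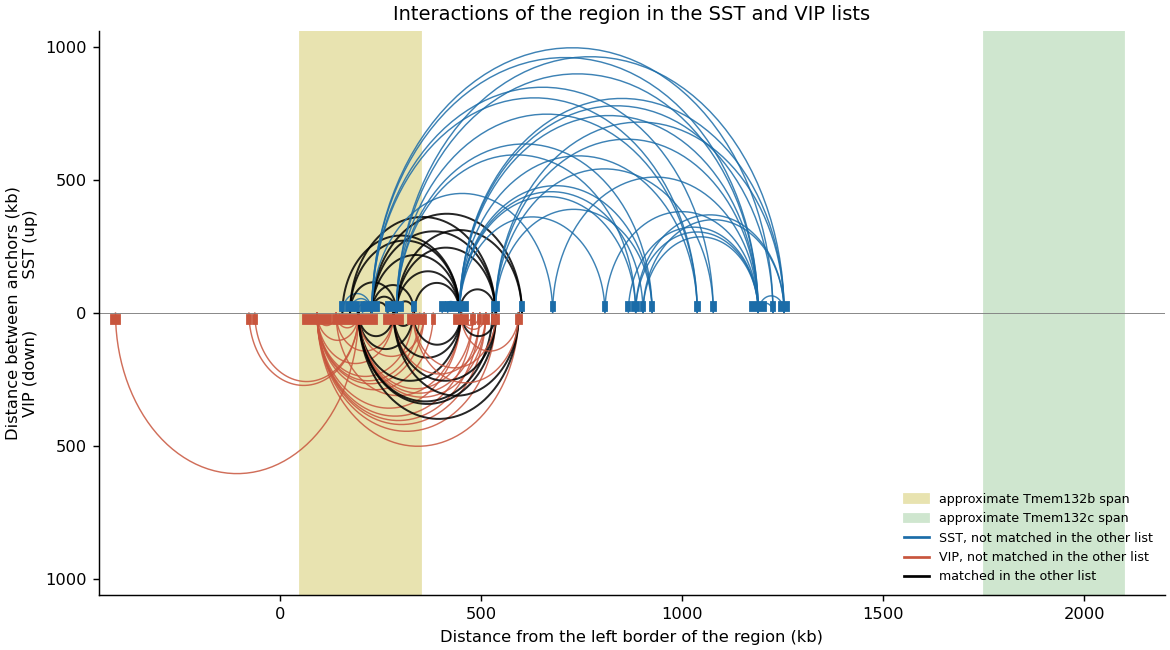
Interactions of the stretch, drawn as arcs between anchor midpoints, SST upward and VIP downward, against the distance in kb from the left border of the stretch; arc height is the distance between anchors in kb, small blocks are anchors, and black arcs have a counterpart in the other list. The matched arcs (16 SST, 12 VIP) sit between the middle of the Tmem132b span and about 600 kb, the SST arcs continue to the right up to 127215727, VIP arcs start further left, and nothing reaches the approximate Tmem132c span.

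Tmem132c had no listed contact in either cell type. The zone of its approximate span with 50 kb added at each end, 127.65 to 128.1 Mb, held 0 anchors and 0 interactions in SST and in VIP. Such an empty zone is common, as 63.5% of windows of that length had no anchor in either list, against 65.3% for the length of the Tmem132b zone used below. At least 1 anchor was present in 28.5% of these windows in SST and in 24.6% in VIP. The last SST anchor ended at 127215727, 434 kb before this zone, and the last VIP anchor ended at 126551263, 1099 kb before it. To the right, the next anchor began at 129310562 in SST and at 129309732 in VIP, so 2095 kb and 2758 kb held no anchor. Although the stretch is named for both genes, its listed interactions lay at Tmem132b, to its left or in the span to its right. No interaction joined the Tmem132b zone to the Tmem132c zone. These zones lie 1.3 Mb apart, and the longest interaction anywhere in the lists measured 999.7 kb (SST list) or 995.5 kb (VIP list), so the lists hold no distance at which such a link could appear.

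Around Tmem132b, the VIP anchors covered more of the gene than the SST anchors and began further left. The zone from 125.95 to 126.35 Mb held 8 SST anchors, which cover 138 kb, and 8 VIP anchors, which cover 271 kb. All 8 SST anchors of the zone overlapped a VIP anchor, and 3 of the 8 VIP anchors overlapped an SST anchor. Over the whole lists these shares were 36.9% of SST anchors and 43.5% of VIP anchors. Of the 8 SST anchors, 5 overlapped the same VIP anchor of 89.6 kb, so these counts depend on how wide the anchors were called. For windows of the length of the zone, 26.8% had an SST anchor and 23.2% had a VIP anchor. SST had 31 interactions touching the zone and VIP had 37. The first SST anchor started at 126100204, while VIP had 2 anchors to the left of it inside the stretch. These were the anchor at 126007134 to 126077026, at the left end of the approximate gene span, and its neighbour at 126081654 to 126096875. Neither overlapped an SST anchor. In RefSeq both genes lie on the plus strand, so the left end is the side of the annotated start. Whether the promoter printed above falls in the VIP anchor was not tested.

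The left VIP anchor, 126007134 to 126077026, was 69.9 kb wide and took part in 13 interactions (6.92 to 22.2). All of its partners lay to the right, at distances of 47.2 to 501 kb with a median of 289 kb. They included the neighbouring anchor, 6 further anchors of the Tmem132b zone and 6 anchors of the span beyond it. None of the 13 had an SST counterpart, since SST had no anchor at this place. The neighbour at 126081654 took part in 4 interactions. The absence of a counterpart depends on how anchors were split. Merging VIP anchors within 5 kb joined both to the next VIP anchor, which starts at 126100204 and overlaps SST anchors.

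The centre of the gene was an anchor hub in both lists, but the lists divided it differently. In VIP, 1 anchor of 89.6 kb, from 126100204 to 126189813, took part in 15 interactions (8.40 to 24.7), the most of any VIP anchor of the stretch. It overlapped 5 SST anchors, whose numbers of interactions sum to 25. This sum is not a number of distinct interactions, as a link between 2 of these anchors counts at both. Of the 5 SST anchors, the one at 126159561 to 126196648 was 37.1 kb wide and had 15 interactions (8.40 to 24.7). The remaining 4 had between 1 and 5. The next hub was the VIP anchor at 126208090 to 126256291 with 8 interactions and the SST anchor at 126222588 to 126256291 with 12, both ending at the same base. The anchors at 126268559 to 126293058 in VIP and 126277308 to 126289116 in SST had 6 and 3 interactions. Anchors at 126294156, 126303126 and 126327469 were listed in VIP alone and had 1 or 2 interactions each.

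To the right of the approximate gene span, outside the Tmem132b zone, lay the busiest SST anchor of the stretch. SST anchors at 126347252 and 126361929 lay between the gene span and this anchor. They overlapped no VIP anchor and had 1 interaction each. The anchor at 126375327 to 126417448 took part in 16 SST interactions (9.15 to 26.0), with 7 partners to its left and 9 to its right. The corresponding VIP anchor, 126382924 to 126417448, took part in 10 (4.80 to 18.4), with 5 partners on each side. In SST its partners lay up to 807 kb away, and in VIP up to 358 kb. The SST anchor at 126477365 to 126493306, with 8 interactions, overlapped a pair of VIP anchors with 1 and 5. The last anchor held in common was at 126545766 to 126557280 in SST, with 2 interactions, and 126535807 to 126551263 in VIP, with 5. VIP had 3 anchors between 126425131 and 126468515, with 3, 3 and 4 interactions, where SST had none.

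**Figure D2:**
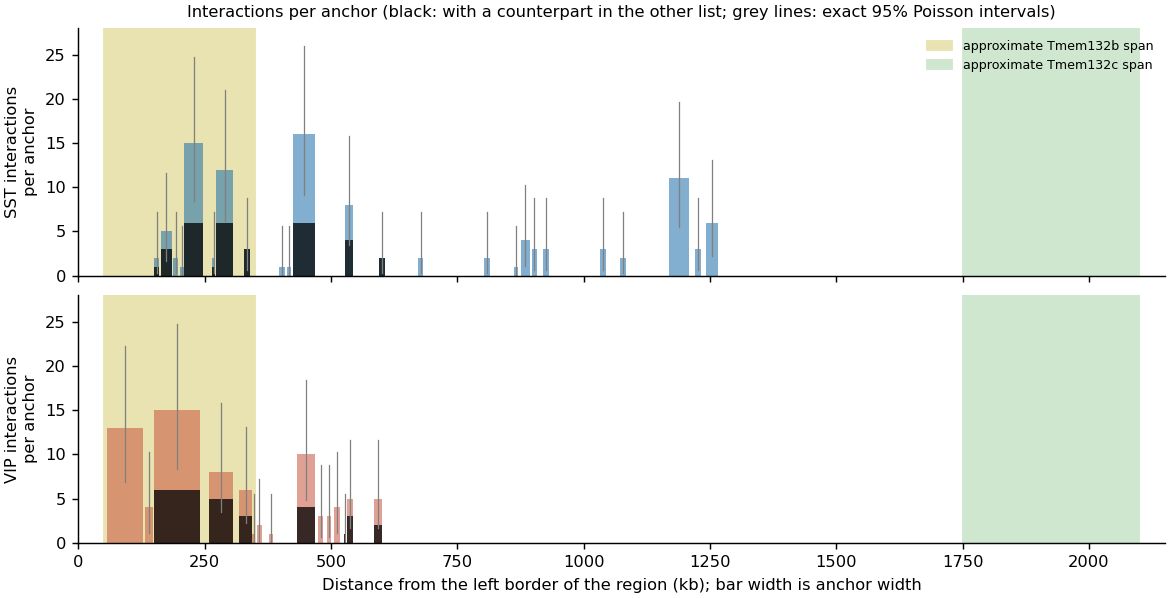
Interactions per anchor along the stretch, SST above and VIP below; the horizontal axis is the distance in kb from the left border, bar width is the width of the anchor, black parts are interactions with a counterpart in the other list, and grey lines are exact 95% Poisson intervals. VIP bars end at 126551263 while SST bars go on to 127215727, with 11 interactions at the highest anchor of that last part.

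Past this point only SST interactions were listed within the stretch. SST had 11 anchors to the right of the last VIP anchor, and they reached 664 kb further. The cut is the last VIP anchor itself, so the absence of VIP anchors past it holds by definition. SST anchors without a VIP anchor are common, as 36.9% of all SST anchors overlapped one, against 45.8% in the stretch. The share of interactions past such a cut was not counted over the whole list. With an anchor there, 31 SST interactions made up 56.4% of its interactions in the stretch. Of the 31, 10 started in the Tmem132b zone, with 5 each from the anchors at 126159561 and 126222588. A further 8 started at the anchor at 126375327, 4 at the one at 126477365, and 9 lay wholly to the right of the last VIP anchor. Their median distance was 542 kb, with a range of 36.8 to 998 kb.

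The far end of this SST part was a block of 3 anchors between 127119595 and 127215727. It was 96.1 kb long and took part in 18 interactions, or 32.7% of the SST interactions of the stretch. The anchor at 127119595 to 127158900 alone had 11 (5.49 to 19.7). Of its partners, 9 lay to the left, from 287 kb to 961 kb away, and 2 lay in the block itself. The anchor at 127191649 to 127215727 had 6 interactions and the one at 127170022 to 127182051 had 3. The Tmem132b zone was linked to the block by 4 interactions, of 900, 961, 964 and 998 kb. The last of these, from 126159561 to 127182051, was the longest of the stretch and lies close to the longest distance in the SST list. Between the block and the common part, 8 SST anchors had 1 to 4 interactions each.

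**Figure D3:**
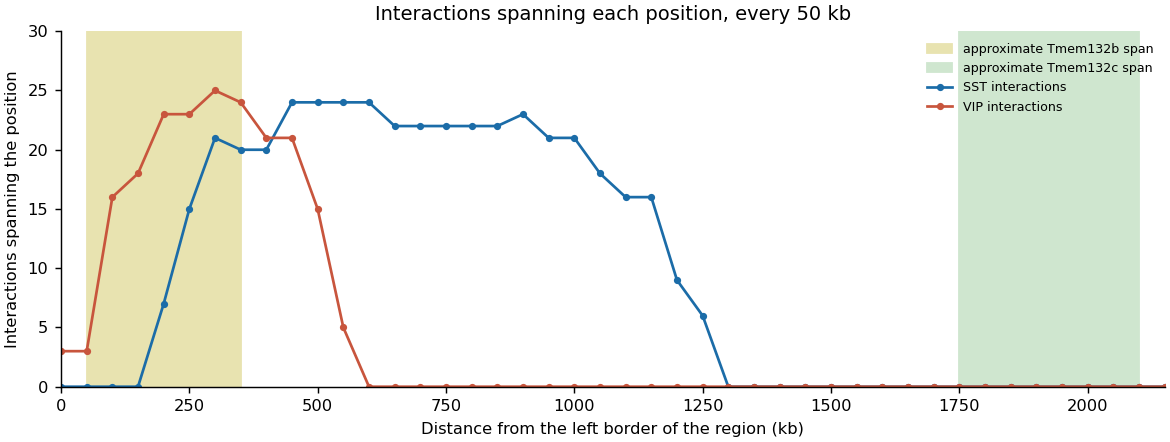
Number of listed interactions that span each position, in steps of 50 kb, against the distance in kb from the left border; lines are SST and VIP. VIP rises to 25 over the Tmem132b span and is at 0 from 600 kb on, while SST starts at 200 kb, stays between 20 and 24 from 300 to 1000 kb and is at 0 from 1300 kb on.

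Contacts to the left of the stretch were listed in VIP alone. The hub anchor at 126100204 to 126189813 was linked to anchors at 125528932 to 125552276 (604 kb away, the longest VIP interaction of the stretch), 125867629 to 125877333 (273 kb) and 125882552 to 125891543 (258 kb). Each of these 3 anchors overlapped an SST anchor, with 5, 4 and 2 SST interactions, none of which entered the stretch. At the borders, the nearest anchors just outside on the left were at 125919946 to 125932397 in SST, with 1 interaction, and at 125882552 to 125891543 in VIP, with 2. Those just inside were the SST anchor at 126100204 and the VIP anchor at 126007134.

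By zone, 11 SST interactions lay within the Tmem132b zone, 20 joined it to the span between the genes, and 24 lay within that span. In VIP the numbers were 13, 21 and 5, and the 3 interactions that ran to the left made up the rest. Within the span between the genes, SST interactions had a median distance of 386 kb and VIP interactions of 61.5 kb. The VIP anchors of this span lie between 126382924 and 126551263, and its longest VIP interaction measured 143 kb. SST anchors run to 127215727, so these medians depend on where the anchors of each list lie.

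Of the SST interactions, 16 of 55 or 29.1% (17.6 to 42.9%) had a counterpart in VIP, meaning that both anchors overlapped the anchors of a VIP interaction. Over the whole SST list the value was 21.4%. Of the VIP interactions, 12 of 42 or 28.6% (15.7 to 44.6%) had a counterpart in SST, against 25.8% over the VIP list. Both list values lie within the intervals of the stretch. Anchors inside the stretch overlapped an anchor of the other list in 11 of 24 cases in SST, 45.8% (25.6 to 67.2%), against 36.9% of all SST anchors. In VIP this was 7 of 15, 46.7% (21.3 to 73.4%), against 43.5% of all VIP anchors. The share depends on the overlap rule, as 73.3% of the VIP anchors of the stretch had an SST anchor when anchors within 10 kb counted as overlapping, and the share of matched VIP interactions was then 42.9%. With anchors of each list within 5 kb merged, 47.8% of VIP interactions were matched.

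The matched contacts joined 6 loci that both lists contain. The 3 longest matched SST interactions ran from 126159561 to 126557280 (373 kb), from 126113585 to 126493306 (361 kb) and from 126222588 to 126557280 (312 kb). In VIP, 6 matched interactions belonged to the anchor at 126100204 to 126189813, with distances of 87.2 to 399 kb. Another 4 led from the anchor at 126208090 to 126256291 to those at 126268559, 126382924, 126480780 and 126535807. The final 2 joined 126268559 to 126382924 (119 kb) and 126382924 to 126480780 (87.0 kb).

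When overlapping anchors of the lists were merged into a common set, a step added after seeing the data, the stretch comprised 27 loci, of which 6 were in both lists. Among the 15 pairs of these 6 loci, 11 were linked in both lists, 3 in VIP alone, 0 in SST alone and 1 in neither. The 6 loci were kept because both lists have interactions there. No such tally was made over the whole lists, so a usual share of linked pairs is not known. The 3 loci to the left of the stretch were in both lists too, and their links to the Tmem132b hub were listed in VIP alone. The SST interactions without a counterpart fell into 6 with both anchors in the VIP list, 24 with 1 and 9 with none. In these 6 both anchors overlapped the same VIP anchor, so VIP had no pair of anchors there to link. The VIP interactions without a counterpart fell into 6 with both anchors in the SST list, 17 with 1 and 7 with none. For most interactions without a counterpart, therefore, at least 1 anchor itself was missing from the other list. The same split was not counted over the whole lists, so it is not shown to be particular to the stretch. Over the whole lists, only 36.9% of SST anchors and 43.5% of VIP anchors overlapped an anchor of the other list.

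Median distances in the stretch were above those of the lists, a difference that was not tested. The median was 351 kb in SST (order-statistic interval 246 to 450 kb) against 178 kb over the SST list, and 255 kb in VIP (168 to 289 kb) against 167 kb over the VIP list. Distances over 500 kb made up 17 of 55 SST interactions, 30.9% (19.1 to 44.8%), against 15.6% of the SST list. In VIP they made up 2 of 42, 4.76% (0.582 to 16.2%), against 13.2% of the VIP list. All 17 of these SST interactions ended to the right of the last VIP anchor, which follows from the anchor positions. The first SST anchor of the stretch starts at 126100204, and the last VIP anchor ends at 126551263. VIP anchors inside the stretch lie between 126007134 and 126551263, which leaves little room for distances over 500 kb. The shortest interaction was 18.2 kb in SST, from 126113585 to 126147268, and 29.9 kb in VIP, from 126382924 to 126435065. Medians were 188 kb (SST) and 212 kb (VIP) for matched interactions, and those without a counterpart had medians of 450 kb and 260 kb. Matched distances inside the stretch are limited by construction. A match needs anchors in both lists, and inside the stretch these lie only between 126100204 and 126557280.

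**Figure D4:**
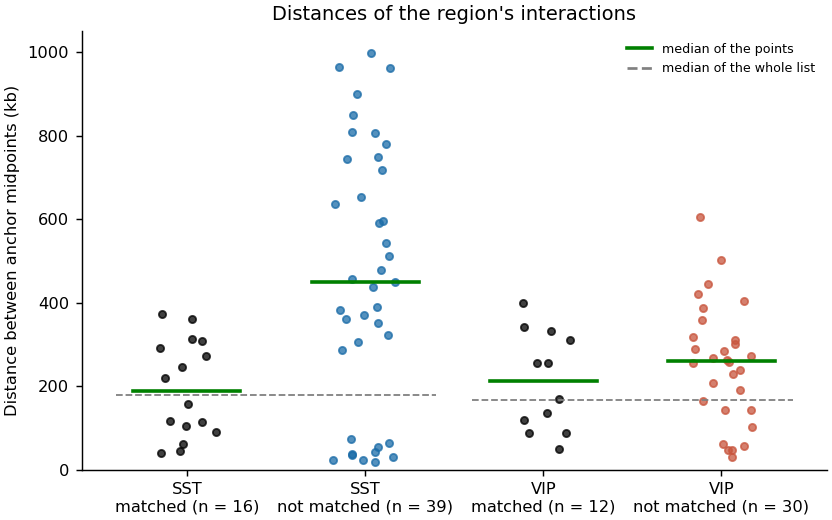
Distance between anchor midpoints in kb for each interaction of the stretch, by list and by whether it has a counterpart in the other list; green bars are medians of the points and dashed lines the medians of the whole lists. Matched points end at 373 kb (SST) and 399 kb (VIP), while SST points without a counterpart go up to 998 kb and VIP points up to 604 kb. By construction, a match inside the stretch can only join anchors between 126100204 and 126557280, where both lists have anchors.

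Within each list every anchor of these interactions was connected to all others through listed links, as 24 SST anchors and 18 VIP anchors each formed 1 connected group. The 3 busiest anchors took part in 40 SST interactions (72.7%) and 35 VIP interactions (83.3%). An anchor of the stretch had a median of 3 interactions in SST and 4 in VIP, against 2 over each list. Anchor widths ranged from 7.06 to 42.1 kb in SST, with a median of 11.7 kb, and from 3.09 to 89.6 kb in VIP, with a median of 13.6 kb. The part of anchor width in the number of interactions per anchor was not tested. When anchors of a list within 5 kb were merged, the VIP anchors from 126007134 to 126189813 became a single one and the interactions numbered 38 in SST and 23 in VIP. The outer ends, 126100204 and 127215727 in SST and 126007134 and 126551263 in VIP, were the same with this merging.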

How the data were processed

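Per the submitters' processing notes, HiC-Pro and the mm9 build were used. How interactions and anchors were called, at which threshold, and whether replicates were pooled is not stated in the labels. Each deposited file holds 6 columns without a header, the chromosome, start and end of the paired anchors; starts were taken as counting from 0, which the sources do not state. Distances join anchor midpoints, and a counterpart needs both anchors to overlap by at least 1 bp. Anchors were placed in zones by midpoint. The members, zones and lists were chosen with earlier results of these data known. Named by rule are the 5 busiest anchors of each list, links between the gene zones, the longest, shortest and matched interactions, and the 3 nearest tiles. Intervals are Clopper-Pearson, Poisson or order-statistic. The matching code was checked on simulated lists. Sequences and gene order come from RefSeq GRCm38.p6; a promoter matched for 2 of 2 genes. Software was scipy 1.17.1, pandas 2.3.3 and numpy 2.4.6 under Python 3.11.15, with matplotlib 3.10.9 for plots.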

Additional observations from a re-analysis of the deposited data

How the results depend on the processing

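The Tmem132c zone stayed at 0 interactions with the added 50 kb left out and with anchors placed by any overlap. These settings could not change it, as the nearest anchor on the left ended 434 kb before the zone. The other zone counts stayed within 1.5 times their first value. Limited to 200 kb, which leaves out interactions by construction, the stretch held 18 SST and 16 VIP interactions, and 44.4% of the SST ones had a counterpart. With identical anchors required, 0% of interactions and 0% of anchors matched in SST and in VIP. Merging anchors of a list within 5 kb left 23 VIP interactions, and 15 SST and 9 VIP anchors; the matched share in VIP was then 47.8%, a value added after seeing the data. Counting anchors within 10 kb as overlapping gave 73.3% of VIP anchors and 42.9% of VIP interactions matched. In the part with anchors in both lists, also added then, 66.7% of SST and 52.2% of VIP interactions were matched, and the SST median distance was 97.0 kb, as longer interactions are left out by construction. Of 66 alternative values, 52 stayed within 1.5 times the first count or within its interval. This tally includes the values for the Tmem132c zone, which could not change. No paired analysis was possible because only replicate 1 of either cell type has a list here, which also means that leaving out a replicate could not be tried. The read depth that limits these lists is not known.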
